A study of Mus musculus with 30 samples.

Results

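The transcription factors ATF4 and CHOP (gene Ddit3) and 8 of their known target genes were followed in skeletal muscle of mice kept on a stable or a repeatedly shifted light schedule. The 10 genes were chosen by name, Atf4, Ddit3, Atf5, Asns, Ppp1r15a, Trib3, Chac1, Sesn2, Fgf21 and Gdf15, out of 56951 gene symbols in the deposited tables, and 8 of them were among the 12030 genes with enough reads to be tested. The gastrocnemius, a fast calf muscle, was taken with the adjoining plantaris from male wild-type C57BL/6J mice that lived singly with a running wheel. The LD group (14 mice) stayed on a cycle with light from 8:00 to 20:00, and the ADV group (16 mice) had its cycle advanced by 8 h every 4 days, both for 64 weeks. Poly(A) RNA of each mouse gave 1 library, so n counts mice, and the ADV schedule models chronic jet lag in whole muscle, without separating myofibers from other cells.

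ATF4 and CHOP belong to the integrated stress response. Kinases that sense a shortage of amino acids, unfolded proteins, viral RNA or mitochondrial trouble phosphorylate the translation factor eIF2, which lowers protein synthesis as a whole and at the same time favors translation of the Atf4 and Atf5 mRNAs through their upstream open reading frames. ATF4 protein then binds a composite CEBP-ATF element and turns on genes of amino acid supply, redox balance and feedback, among them Ddit3, whose protein CHOP works as a partner factor. Because ATF4 is set largely at translation, the mRNA level measured here is only one layer of the pathway. In muscle the pathway is also known for the secreted hormones FGF21 and GDF15.

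Read pairs counted on exons ranged from 18875468.5 to 28512674 per library, with medians of 21711467.5 in the LD group and 22152249.25 in the ADV group. Expression is given as FPKM, the fragments counted on a transcript divided by its exon length and by the library's total, which allows levels to be compared between genes, and folds between the groups come from edgeR on the counts. A gene was called when its false discovery rate (FDR) over all 12030 genes was under 0.05. This rule put 675 genes (5.61%) above and 626 (5.2%) below their LD level in the ADV mice. The calls were 51.9% in the higher direction, 62.4% with library size alone as the scaling and 65.7% with limma on log2(FPKM + 0.1). Of the 8 myofiber markers all were expressed, with a summed level of 68874.1 to 94546 FPKM in the LD group and 67750.8 to 92546.6 FPKM in the ADV group. In whole muscle, fewer cells of a type and less RNA per cell cannot be told apart.

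Among the 8 tested genes, 4 were called higher in the ADV group (Ddit3, Asns, Ppp1r15a and Atf4), 0 were called lower, and 4 were not called (Atf5, Sesn2, Trib3 and Chac1). With the fold also required to exceed 1.3, as 252 genes (2.09%) did, Ddit3, Asns and Ppp1r15a remained and Atf4 did not. The median log2 fold change of the 8 genes was 0.23, against 0.0029 over all genes tested. The paper had already reported Atf4 and Ddit3 as higher in ADV mice from these libraries, so this contrast is description only. By the rank-sum test on FPKM, with adjustment over all genes, Atf4, Ddit3 and Ppp1r15a passed, where 9.67% of all genes did. The plot of FPKM by mouse shows how far the groups overlap for each gene.

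**Figure D1:**
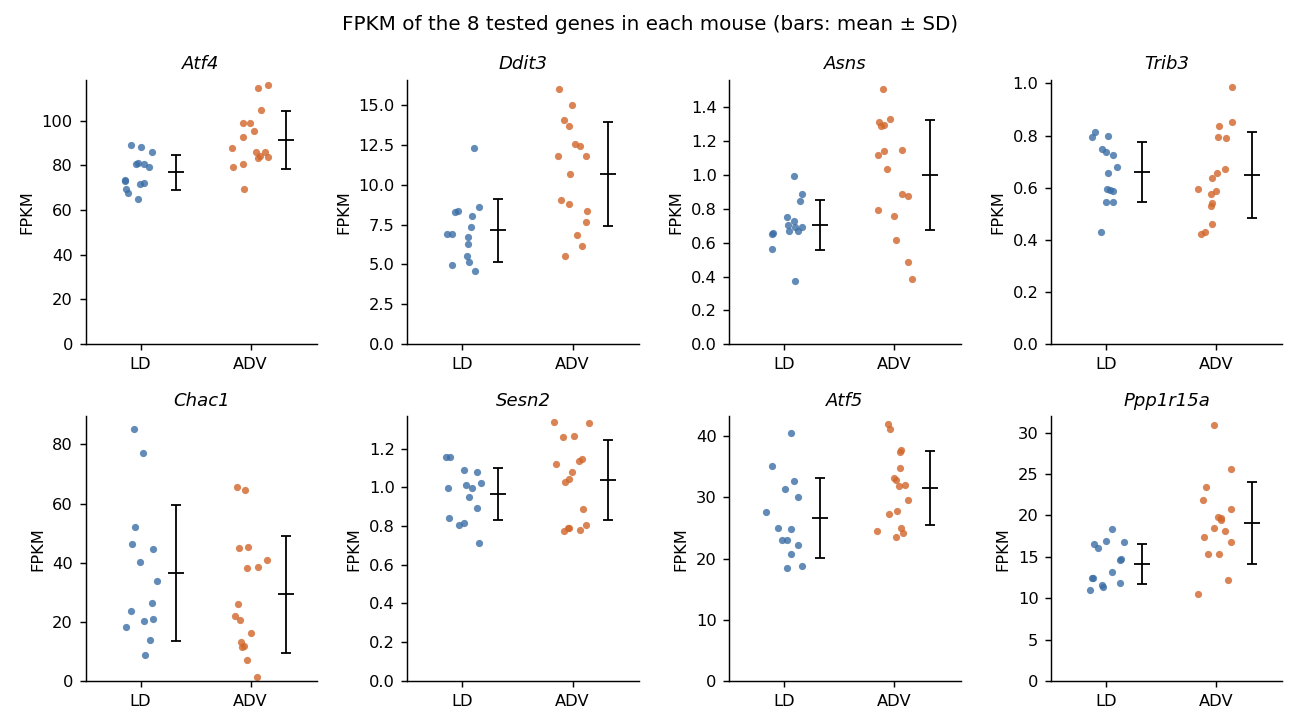
FPKM (vertical axis, from 0) of the 8 tested genes in each mouse, LD (14 mice) and ADV (16 mice), with the mean and SD as bars. The groups overlap for every gene, and the number of ADV mice above the highest LD mouse is 9 for Asns and Ppp1r15a, 7 for Atf4, 6 for Ddit3, 4 for Sesn2, 3 for Trib3, 2 for Atf5 and 0 for Chac1.

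Atf4 encodes the central factor of the pathway and was the most abundant of the 10 genes per exon length. Its level ran from 64.8 to 89.0 FPKM around a median of 76.2 in LD mice, and from 69.2 to 115.7 FPKM around 86.9 in ADV mice. The LD median was exceeded by 15 of the 16 ADV mice and the highest LD mouse by 7, while 2 LD mice were above the ADV median. The difference was a fold of 1.18 (log2 0.23, 95% interval 0.10 to 0.37, edgeR FDR 0.0212). Its SD between mice, on the log2 CPM scale, was ordinary for an expressed gene, larger than that of 39.6% of genes in LD and 50.9% in ADV.

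Ddit3 encodes CHOP, a CEBP-family factor that pairs with ATF4 and, under lasting stress, is linked to cell death. LD mice were at 4.60 to 12.3 FPKM with a median of 6.88, and ADV mice at 5.53 to 16.0 FPKM with a median of 11.2. The single LD mouse above the ADV median was LD mouse 36, with 12.3 FPKM, whereas the next highest LD mouse was at 8.57 FPKM. The fold of 1.47 (log2 0.56, 95% interval 0.26 to 0.85, edgeR FDR 0.0150) was the largest of the 8, and 13 ADV mice exceeded the LD median. Annotated exons of Mars1, the methionyl-tRNA synthetase, cover 79.5% of the 979 annotated exon bases of Ddit3 from the opposite strand. Those of Gm4189, a long noncoding RNA with a mean of 4.4 reads, cover 20.5% from that strand. The counted row of Ddit3 has an exon length of 883 bases, so these shares are of the annotation. Whether the counting used the strand is not given in the sources used here. Mars1 itself had a median of 21.6 FPKM in LD and 20.8 FPKM in ADV mice (log2 fold change -0.013, 95% interval -0.10 to 0.075, edgeR FDR 0.862). The part of Mars1 reads in the counts of Ddit3 was not tested.

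Atf5, a close relative of Atf4 that is translated under the same control and acts in the mitochondrial stress response, was not called. It stood at 18.4 to 40.6 FPKM in LD mice (median 24.9) and at 23.6 to 42.0 FPKM in ADV mice (median 31.9), with 13 ADV mice above the LD median and 2 above the highest LD mouse. The log2 fold change was 0.23 with a 95% interval of 0.01 to 0.44 (edgeR FDR 0.143). The fitted value was 0.080 once the trend with GC content was removed and 0.027 with a score of clock genes, described further on, in the model.

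Asns, asparagine synthetase, is the textbook amino acid response target of ATF4. It was weakly expressed, with 19.0 to 55.0 reads per LD library and 20.0 to 67.5 per ADV library. In FPKM this was 0.373 to 0.996 in LD mice and 0.387 to 1.51 in ADV mice, with medians of 0.694 and 1.08. No LD mouse was above the ADV median, and 9 of 16 ADV mice were above the highest LD mouse, yet ADV mice 31 and 30, with 0.387 and 0.489 FPKM, sat at the low end of the LD range. The fold was 1.40 (log2 0.48, 95% interval 0.17 to 0.79, edgeR FDR 0.0390). Its SD on the log2 CPM scale exceeded that of 82.2% of genes in LD and 95.8% in ADV mice. At so few reads this spread includes counting error, whose part was not tested. The call of Asns was lost in 12 of 30 fits that each left out 1 mouse (LD mice 21, 28, 29, 30, 32 and 36, ADV mice 22, 23, 24, 25, 27 and 33), with an FDR of up to 0.0655 without ADV mouse 25.

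Ppp1r15a encodes GADD34, the subunit that brings a phosphatase to eIF2 and ends the response. It ranged from 11.025 to 18.3 FPKM in LD mice (median 13.9) and from 10.5 to 30.96 FPKM in ADV mice (median 19.0). No LD mouse reached the ADV median, whereas 14 ADV mice passed the LD median and 9 the highest LD mouse. ADV mouse 22 at 10.5 FPKM was below every LD mouse. The fold of 1.34 (log2 0.42, 95% interval 0.18 to 0.67, edgeR FDR 0.0242) kept its call in all 30 edgeR fits without 1 mouse, as did those of Atf4 and Ddit3. In the rank-sum test on FPKM with 1 mouse left out, Ddit3 missed an FDR of 0.05 in 11 of 30 runs, Atf4 in 4 and Ppp1r15a in 0.

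Trib3, Sesn2 and Chac1 are also induced by ATF4 in cultured cells, and none was called here. Trib3, a pseudokinase that feeds back on ATF4 and CHOP, had 20.5 to 41.5 reads per LD library and 19.0 to 48.0 per ADV library. Its median was 0.669 FPKM in LD and 0.616 FPKM in ADV mice, and the LD median was exceeded by 6 of 16 ADV mice (log2 fold change -0.04, 95% interval -0.28 to 0.19, edgeR FDR 0.829). Sesn2, sestrin 2, a leucine sensor that restrains mTORC1, had medians of 0.998 and 1.06 FPKM (log2 fold change 0.076, 95% interval -0.11 to 0.26, edgeR FDR 0.613). These intervals leave out the fitted changes of Ddit3, Asns and Ppp1r15a, but the differences between genes were not tested.

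Chac1, which degrades glutathione and in cultured cells is a sharp CHOP and ATF4 target, varied more between mice than nearly any other gene. LD mice ran from 8.88 FPKM in LD mouse 34 to 85.3 FPKM in LD mouse 33, with a median of 30.0, and ADV mice from 1.17 FPKM in ADV mouse 28 to 65.8 FPKM in ADV mouse 33, with a median of 24.01. The highest value was 9.60 times the lowest in the LD group and 56.0 times in the ADV group. On the log2 scale its SD was larger than that of 99.4% of genes in LD and 99.9% in ADV mice. The log2 fold change of -0.34 had a 95% interval of -1.08 to 0.40 (edgeR FDR 0.561), which holds changes of either sign.

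The secreted factors were close to the floor of detection and were not tested. Fgf21, a fasting and stress hormone, had 0 to 2.0 reads per LD library and 0 to 7.0 per ADV library, 27.5 reads in all 30 together, with 7 of 14 LD and 8 of 16 ADV libraries at 0. ADV mouse 32 held 7.0 of these reads. Gdf15, which acts on appetite through the hindbrain, had 21.5 reads over the 14 LD libraries and 51.0 over the 16 ADV libraries, and was at 0 in 4 LD libraries and 1 ADV library. The LD median of 0.0305 FPKM was exceeded by 14 ADV mice (rank-sum p by permutation 0.0236, not adjusted). In a fit without the filter on low genes its log2 fold change was 0.96 (unadjusted edgeR p = 0.0415, FDR 0.211 over 20084 genes), so it was not called. For Fgf21, at this depth, a difference was not detectable (rank-sum p by permutation 0.946).

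The element that ATF4 binds with a CEBP partner was looked for as the letters TGATGNAA, or their reverse complement TTNCATCA on the other strand, in the 300 bases from 250 before to 50 after each deposited transcript start. It stood in 4 of the 10 genes (Asns, Trib3, Chac1 and Fgf21), against 250 of the 12029 tested genes with a window (2.08%). It was also in 5 of the 13 cytosolic tRNA synthetase genes (38.5%), a family rich in ATF4 targets. Over all 76 other tested pathway genes, these 5 included, it stood in 9. The lists were made by name from known targets and pathway genes, so no conclusion is drawn from these shares. Stretches of these 4 promoters are shown because their genes share the element and yet range from called higher (Asns) through not called (Trib3, Chac1) to hardly detected (Fgf21). They run on the gene's strand from 200 bases before the start through the first 30 transcribed bases in GRCm39, and capitals mark the match:
Asns: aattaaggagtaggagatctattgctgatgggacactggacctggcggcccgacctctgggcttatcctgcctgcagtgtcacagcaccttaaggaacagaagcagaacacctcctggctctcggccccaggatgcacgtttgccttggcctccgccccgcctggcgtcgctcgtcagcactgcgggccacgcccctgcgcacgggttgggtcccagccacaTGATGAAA
Trib3: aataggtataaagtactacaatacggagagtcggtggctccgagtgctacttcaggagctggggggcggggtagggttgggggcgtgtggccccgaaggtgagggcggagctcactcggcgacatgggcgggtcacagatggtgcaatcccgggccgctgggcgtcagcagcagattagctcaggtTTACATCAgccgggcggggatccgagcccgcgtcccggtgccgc
Chac1: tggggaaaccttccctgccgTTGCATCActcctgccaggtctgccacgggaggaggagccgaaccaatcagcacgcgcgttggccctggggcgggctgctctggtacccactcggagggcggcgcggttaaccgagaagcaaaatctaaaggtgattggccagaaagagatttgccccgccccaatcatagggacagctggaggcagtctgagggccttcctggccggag
Fgf21: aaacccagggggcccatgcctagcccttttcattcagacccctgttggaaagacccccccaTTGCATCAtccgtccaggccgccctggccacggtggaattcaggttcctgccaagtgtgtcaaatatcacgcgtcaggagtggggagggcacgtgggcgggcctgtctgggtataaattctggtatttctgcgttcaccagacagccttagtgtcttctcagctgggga

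The Asns stretch is chr6:7693225-7693454 (minus strand), and its match begins at position 22, counted from 0 at the first transcribed base, in the orientation of the gene. The Trib3 stretch is chr2:152185923-152186152 (minus strand), with a match on the opposite strand whose first base is at position -14. The Chac1 stretch is chr2:119181510-119181739 (plus strand), and its opposite-strand match begins at position -180. The Fgf21 stretch is chr7:45264885-45265114 (minus strand), with an opposite-strand match from position -139. Chac1 and Fgf21 share the letters TTGCATCA. A match is a description of these letters and does not show binding in this muscle, and for Atf4, Ddit3, Atf5, Ppp1r15a, Sesn2 and Gdf15 these letters are merely not in this window.

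Seen mouse by mouse, between 2 and 7 of the 8 tested genes stood above their LD medians in an ADV mouse, and between 0 and 8 in an LD mouse. The 4 called genes are described in the same way, though they were picked by this comparison and a high count only restates their calls. All 4 were above their LD median in 10 of 16 ADV mice, 3 of 4 in 4 mice, 2 of 4 in ADV mouse 22, and 1 of 4 in ADV mouse 30. Among LD mice, where the median itself was set, 3 of 14 had all 4 above it and 2 had 0. ADV mouse 30 had the lowest level of Atf4 (69.2 FPKM), Ddit3 (5.53 FPKM), Atf5 (23.6 FPKM) and Sesn2 (0.775 FPKM) of its group, with Ppp1r15a at 19.8 FPKM. ADV mouse 28 had the highest Atf4 (115.7 FPKM) and Ddit3 (16.0 FPKM) and the lowest Chac1 (1.17 FPKM).

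Clock genes and immediate early genes, which respond to time of day and to recent activity, also differed between the groups. A clock gene score, morning genes such as Bmal1 minus evening genes such as Dbp, ran from -3.19 to 1.11 in LD and from -1.26 to 2.42 in ADV mice (exact rank-sum p = 2.2e-05). A score of 8 immediate early genes, such as Fos and Egr1, ran from -1.27 to 0.60 in LD and from -0.86 to 2.05 in ADV mice (exact rank-sum p = 0.0194). With the clock score as a covariate edgeR left 0 of the 4 calls and 0 over all genes (4 of the 8 genes, Ddit3, Asns, Ppp1r15a and Sesn2, and 1580 of all had an unadjusted p under 0.05), while the log2 fold change was 0.66 for Ddit3, 0.50 for Asns, 0.40 for Ppp1r15a and 0.12 for Atf4. With the immediate early score edgeR left 0 of the 4 calls and 324 calls over all genes, where the fit on group alone had 1301. Ddit3, Asns and Atf4, and 2591 of all genes, had an unadjusted p under 0.05 in that fit. The log2 fold change was then 0.44 for Ddit3, 0.43 for Asns, 0.20 for Ppp1r15a and 0.16 for Atf4. Since both scores also differ between the schedules, the shares of schedule, clock score and immediate early score in these folds cannot be told apart. Activity of each mouse just before sampling is not in the labels used here. The paper reports less activity in ADV than in LD mice during the schedule. What moved the immediate early genes was not tested.

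**Figure D2:**
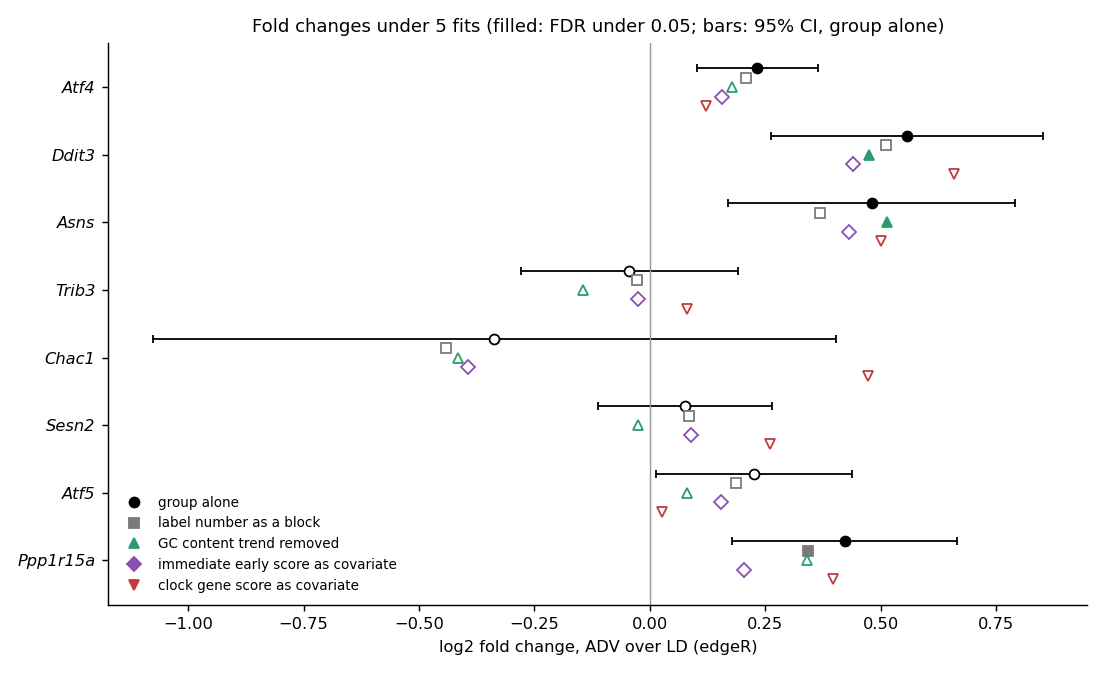
Log2 fold changes (horizontal axis) of ADV over LD mice for the 8 tested genes in 5 edgeR fits, filled where the FDR was under 0.05, with the 95% interval for the fit on group alone. Ddit3 and Asns lie between 0.37 and 0.66 in every fit shown, Ppp1r15a drops to 0.20 with the immediate early score, and Chac1 turns from -0.34 to 0.47 with the clock score.

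GC content also bore on the calls. With the trend of each library over GC content removed, Ddit3 (0.47, edgeR FDR 0.0397) and Asns (0.51, edgeR FDR 0.0444) kept their calls, and Atf4 (0.18, edgeR FDR 0.0771) and Ppp1r15a (0.34, edgeR FDR 0.0741) did not. Over all genes the number of calls went from 1301 to 604 in the same fit. Exonic reads made up 91.2 ± 0.12% of the total in LD and 91.5 ± 0.37% in ADV libraries. Of the other cell types, endothelial markers summed to 52.5 to 71.8 FPKM in LD and 59.5 to 77.3 FPKM in ADV mice (6 of 6 expressed, 2 called higher, exact rank-sum p = 0.0172), and Schwann cell markers to 23.5 to 44.6 and 25.3 to 78.0 FPKM (4 of 5 expressed, 0 called, exact rank-sum p = 0.0194). Fibroblast markers summed to 256.5 to 333.9 FPKM in LD and 219.9 to 347.8 FPKM in ADV mice (5 of 5 expressed, 1 called lower, exact rank-sum p = 0.0523). Leukocyte markers summed to 86.1 to 307.6 FPKM in LD and 81.4 to 158.1 FPKM in ADV mice, with 0 of 7 called, and no marker of any of the lists had a median of 0. Slow fiber markers summed to 52.81 to 1072.83 FPKM in LD and 264.75 to 2097.45 FPKM in ADV mice (0 of 7 called, exact rank-sum p = 0.275). Adipocyte markers summed to 8.72 to 77.2 FPKM in LD and 5.86 to 212.3 FPKM in ADV mice (0 of 5 called, exact rank-sum p = 0.166). The part of these cell types in the folds and in the correlations across mice was not tested.

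Correlations across mice within each group were computed on log2 CPM for the 7 other tested genes with Atf4 and with Ddit3. This gave 28 values, where the pair of Atf4 and Ddit3 itself is counted under both factors. Permutation p-values were adjusted over all 12029 other tested genes. None of the 28 passed an FDR of 0.05. Over all genes the share that passed was 0.0% with Atf4 in LD, 0.0% with Atf4 in ADV, 0.0% with Ddit3 in LD and 0.0416% (5 genes) with Ddit3 in ADV. At an unadjusted p under 0.05, Atf4 had 1 of 7 in LD, where 6.6% of all genes passed, and 2 of 7 in ADV, where 18.8% did. Ddit3 had 1 of 7 in LD, where 8.22% of all genes passed, and 3 of 7 in ADV, where 14.8% did. The pair of Atf4 and Ddit3 in ADV is in both of the ADV counts. The median r with Atf4 was 0.11 in LD and 0.096 in ADV mice, and with Ddit3 -0.18 and 0.22, with values of both signs in each case.

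Atf4 and Ddit3 themselves went together across ADV mice, with r = 0.71 (permutation p = 0.00215, FDR 0.112) and Spearman rho = 0.65 (permutation p = 0.00754), with r = 0.70 without the 2 mice farthest from the Atf4 median and 0.64 without the 2 farthest from the Ddit3 median. Across LD mice the same pair had r = -0.18 (permutation p = 0.547) and rho = -0.10 (permutation p = 0.740). The slope of Ddit3 on Atf4 was 1.58 in ADV and -0.44 in LD mice, and limma's test of the difference gave p = 0.0119 but an FDR of 0.970 over all genes, with 504 of 12029 genes under an unadjusted 0.05. The difference between the groups therefore did not pass.

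Chac1 ran against Ddit3 in ADV mice, with r = -0.66 (permutation p = 0.00325, FDR 0.166) and rho = -0.75 (permutation p = 0.00130). The relation stayed between -0.75 and -0.62 when each mouse was left out in turn, ADV mouse 28 with its very low Chac1 included, and was -0.66 without the 2 mice farthest from the Ddit3 median. In LD mice r was -0.28 (permutation p = 0.342), and 0.064 without its 2 farthest mice. With Atf4, Chac1 had r = -0.49 in ADV (permutation p = 0.0519) and -0.43 in LD mice (permutation p = 0.121). All 4 values were below 0 for a gene that both factors are known to induce, and 0 of them passed the adjustment.

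**Figure D3:**
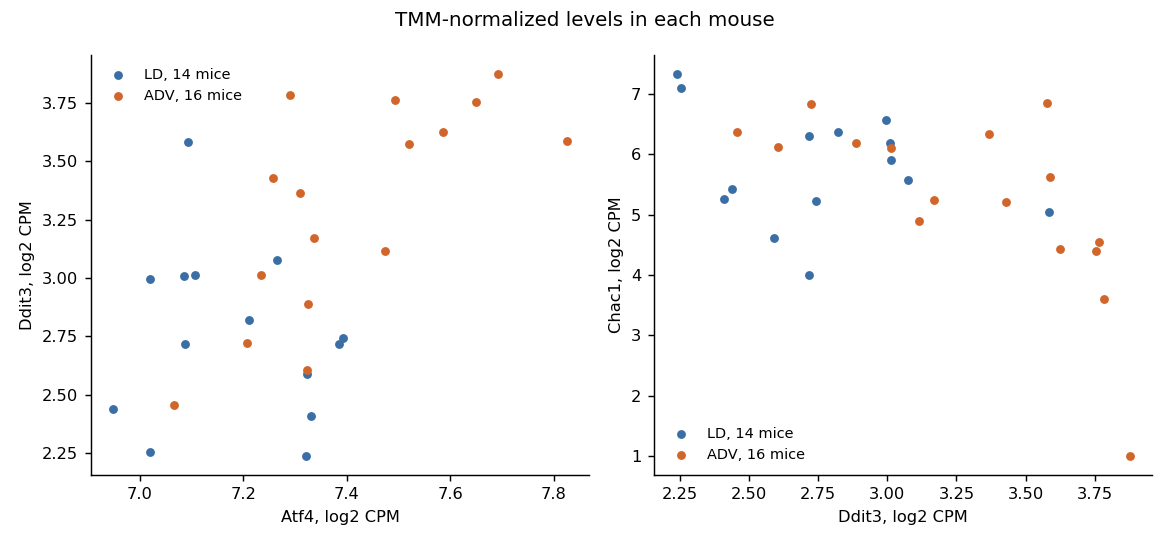
TMM-normalized log2 CPM in each mouse, Ddit3 against Atf4 (left) and Chac1 against Ddit3 (right), with LD (14 mice) and ADV (16 mice) in color. The ADV mice rise together in the left panel (r = 0.71) and fall in the right one (r = -0.66), with ADV mouse 28 at the lower right.

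Atf5 leaned the same way with both factors in both groups. With Ddit3 it had r = 0.59 in ADV (permutation p = 0.0166, rho = 0.55, FDR 0.247) and 0.46 in LD mice (permutation p = 0.0994, rho = 0.58), and with Atf4 0.57 in ADV (permutation p = 0.0218, rho = 0.55, FDR 0.204) and 0.46 in LD mice (permutation p = 0.0961, rho = 0.48). Without the 2 farthest mice the r with Atf4 in LD was 0.13. Ppp1r15a followed Atf4 in LD, with r = 0.65 (permutation p = 0.0144, rho = 0.55, FDR 0.706), and had r = 0.47 in ADV mice (permutation p = 0.0668, rho = 0.39).

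Asns, with the second largest fold of the called genes, had little relation to either factor in ADV mice, with r = 0.096 with Atf4 (permutation p = 0.724) and 0.22 with Ddit3 (permutation p = 0.409). In LD mice its r was 0.48 with Atf4 (permutation p = 0.0707, rho = 0.60) and -0.59 with Ddit3 (permutation p = 0.0283, rho = -0.35). The latter rested on LD mouse 36, which had the highest Ddit3 and the lowest Asns of its group. Without that mouse r was -0.19, and without the 2 farthest mice -0.20. Ppp1r15a with Ddit3 had r = -0.17 in LD (permutation p = 0.564) and 0.31 in ADV mice (permutation p = 0.242), and the relations of Trib3 and Sesn2 ranged from -0.50 to 0.17.

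**Figure D4:**
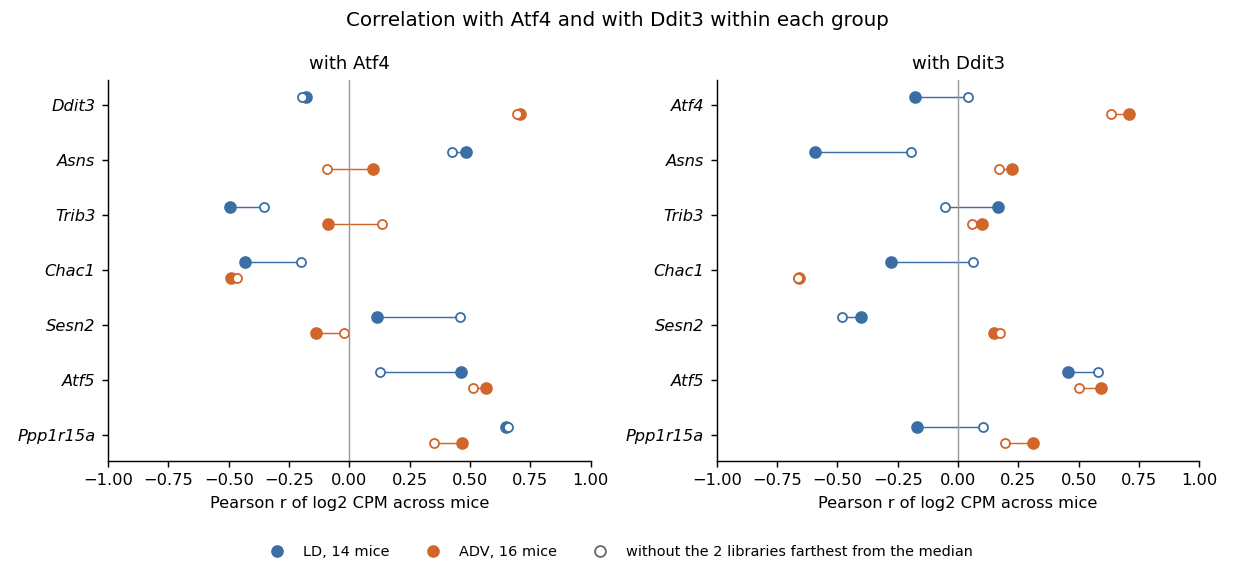
Pearson r (horizontal axis) of each gene with Atf4 (left) and with Ddit3 (right) within LD and ADV mice, with open circles for the value without the 2 libraries farthest from the median. Ddit3 and Atf4 in ADV (0.71) is at 0.70 in the left and 0.64 in the right panel without them, Chac1 and Ddit3 in ADV stays at -0.66, and Asns and Ddit3 in LD moves from -0.59 to -0.20.

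All LD mice kept one schedule, but by the authors' account tissue was taken over several hours of the light period. ADV mice then had the same light cycle as LD mice. Sampling time per mouse is not in the labels used here, and its part in the correlations was not tested. Within the LD group none of the 8 genes passed an FDR of 0.05 for its correlation with the clock score, and 8 of all 12030 genes did. At an unadjusted p under 0.05, r was 0.65 for Atf5 (permutation p = 0.0130, rho = 0.51), 0.55 for Atf4 (permutation p = 0.0429, rho = 0.61), -0.60 for Trib3 (permutation p = 0.0213, rho = -0.65) and -0.62 for Chac1 (permutation p = 0.0197, rho = -0.59). The share of all genes under that unadjusted limit was not counted, so these values are description only. Across ADV mice the r with the clock score was -0.12 for Atf5 (permutation p = 0.674) and 0.13 for Atf4 (permutation p = 0.633). There it was 0.23 for Trib3 (permutation p = 0.412) and -0.19 for Chac1 (permutation p = 0.438). In ADV mice 0 of all 12030 genes passed an FDR of 0.05 with this score. Given the clock score, the r of Atf4 in LD went from 0.46 to 0.17 for Atf5, from -0.43 to -0.14 for Chac1, from -0.50 to -0.24 for Trib3 and from 0.48 to 0.32 for Asns, while it went from 0.65 to 0.69 for Ppp1r15a and from 0.11 to 0.41 for Sesn2. In ADV mice, given the same score, that of Ddit3 with Atf4 was 0.75 and that of Chac1 with Ddit3 -0.71. The immediate early score had r = 0.67 with Ppp1r15a in ADV (permutation p = 0.00480, rho = 0.58, FDR 0.580) and 0.57 in LD mice (permutation p = 0.0357, rho = 0.58, FDR 0.968). No other of the 8 genes had an unadjusted permutation p under 0.05 with this score in either group. In each group 0 of all 12030 genes passed an FDR of 0.05 with it.

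By the smaller of the LD and ADV r, the genes most like Atf4 over the 14 and 16 mice were Phc2 (0.68 and 0.75), Gfer (0.66 and 0.67), Shb (0.65 and 0.67), Rnf185 (0.69 and 0.65) and Rpl8 (0.65 and 0.64). Those most like Ddit3 were Rrad (0.76 and 0.73), Cyb5b (0.69 and 0.76), Ralb (0.71 and 0.67), Wdr1 (0.66 and 0.68) and Zdhhc7 (0.67 and 0.65). On the same scale Ppp1r15a ranked 176 and Atf5 187 of 12029 genes for likeness to Atf4, and Atf5 174 for likeness to Ddit3. The other pairs ranked from 2311 down to 11736. All points of a group share the libraries' depth and scaling, and genes picked from so many by their r are expected to have high values.

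Around the 10 genes, 80 other genes of the pathway were read in the same fit, of which 76 were tested. Of these, 7 were called higher and 1 lower, 10.5% in all, beside 10.8% of all genes tested. The median log2 fold change of the 76 was 0.064. Of the 16 tested genes for eIF2, its kinases, its exchange factor eIF2B and its phosphatase, 0 were higher and 1 was lower. This was Eif2ak2, the kinase PKR that senses double-stranded RNA, at 1.18 to 1.90 FPKM in LD and 0.724 to 1.54 FPKM in ADV mice, where none of the 16 ADV mice reached the LD median (log2 fold change -0.43, edgeR FDR 0.00225).

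Of the 8 partner and feedback factors, 3 were called higher and 0 lower, where 5.61% of all genes were called higher and 5.2% lower. DESeq2 called 4 of the 8, and 1679 of all 12030 genes. An unadjusted edgeR p under 0.05 was found for 6 of the 8, and for 3624 of all genes. Atf3, a stress-induced relative that ATF4 can induce and that immediate signals also induce, went from a median of 3.79 FPKM (1.63 to 18.1) to 19.4 FPKM (2.77 to 123.6), a log2 fold change of 2.43 (edgeR FDR 0.00337). With the immediate early score in the model Atf3 was at 1.26 (edgeR FDR 0.0806) and no longer called. For Jdp2, a repressor of the same family, all 16 ADV mice lay over the LD median (log2 fold change 0.49, edgeR FDR 0.00730). Trib1, a pseudokinase related to Trib3, differed by 0.66 on the log2 scale (edgeR FDR 0.0351), a call lost in 8 of 30 fits without 1 mouse (LD mice 28, 30, 34 and 35, ADV mice 24, 25, 29 and 33). It was also lost in limma on log2(FPKM + 0.1) (FDR 0.0688), without the GC content trend (0.59, edgeR FDR 0.0754) and with the immediate early score (0.26, edgeR FDR 0.379). Of the 8 calls among the other pathway genes, that of Eif2ak2 alone was left with the immediate early score, and those of Eif2ak2, Atf3, Jdp2, Slc38a2 and Slc7a5 without the GC content trend.

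Over all 12030 genes, edgeR called 675 (5.61%) higher and 626 (5.2%) lower, 3624 had an unadjusted edgeR p under 0.05, and DESeq2 called 1679. Among genes of amino acid supply, 0 of 10 enzymes of amino acid and one-carbon synthesis were called by edgeR or DESeq2, and 1 had an unadjusted edgeR p under 0.05. This was Phgdh, which opens the serine pathway, at 0.57 on the log2 scale (edgeR FDR 0.155). Of the 6 tested transporters, 2 were called higher and 0 lower: Slc38a2, a sodium-coupled carrier of small neutral amino acids, from a median of 32.7 to 46.4 FPKM (log2 fold change 0.66, edgeR FDR 0.0276, lost without ADV mouse 25), and Slc7a5, a carrier of large neutral amino acids, from 0.596 to 0.822 FPKM (0.46, edgeR FDR 0.0111). Of the 13 cytosolic tRNA synthetases edgeR called 0 (2 at an unadjusted p under 0.05) and DESeq2 called 1, Sars1, at a log2 fold change of 0.11 (edgeR FDR 0.0648). All 13 lay between -0.067 and 0.11.

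Of the 9 tested growth, secreted and death targets edgeR called 0 (3 at an unadjusted p under 0.05) and DESeq2 called 2. Over all 12030 genes, edgeR called 675 (5.61%) higher and 626 (5.2%) lower, 3624 had an unadjusted edgeR p under 0.05 and 1679 were called by DESeq2. Bbc3, which encodes the BH3-only protein PUMA, was 1 of the 2, at a log2 fold change of 0.39 (edgeR FDR 0.0513). Of the 6 mitochondrial stress genes, 2 were called higher and 0 lower, the matrix protease Clpp (0.19, edgeR FDR 0.0411) and the co-chaperonin Hspe1 (0.16, edgeR FDR 0.0495), calls lost in 14 and 23 of 30 fits without 1 mouse. The IRE1 and ATF6 arms of the unfolded protein response, which run beside ATF4, had 0 of 8 called by edgeR or DESeq2 and 0 at an unadjusted p under 0.05, with the chaperone Hspa5 at 0.11 (edgeR FDR 0.191). The differences between these lists were not tested.

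**Figure D5:**
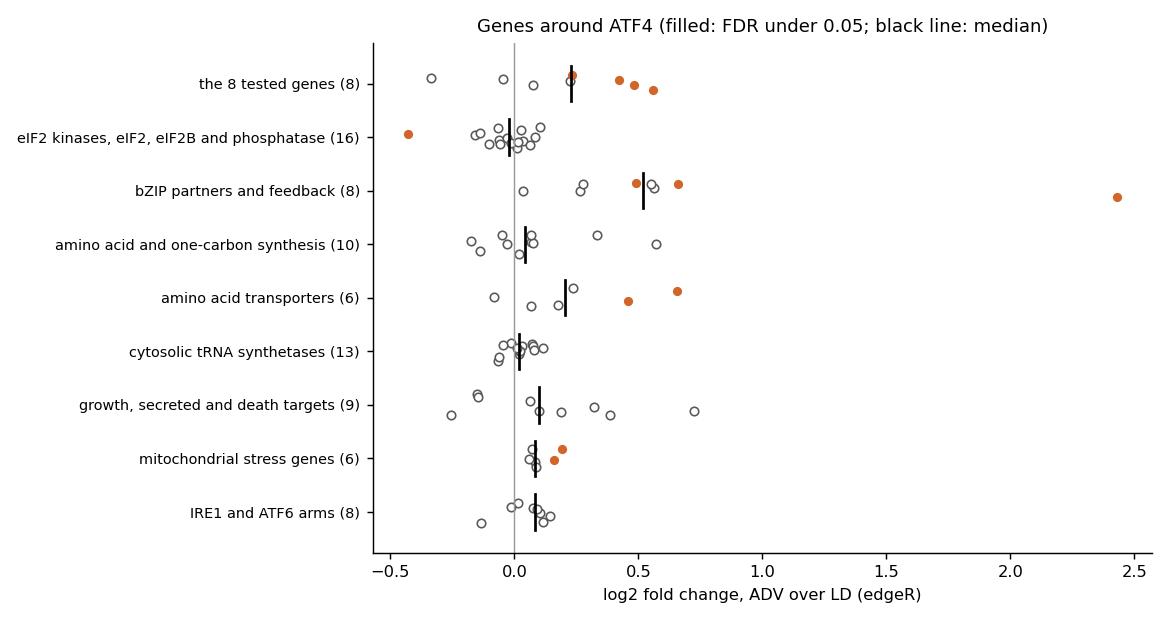
Log2 fold changes (horizontal axis) of ADV over LD mice for the 8 tested genes and 8 lists of other pathway genes (number tested in parentheses), filled where the edgeR FDR was under 0.05, with the list's median as a black line. Partner and feedback factors lie furthest to the right (median 0.52, Atf3 at 2.43), and the tRNA synthetases stay between -0.067 and 0.11.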

How the data were processed

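Gastrocnemius RNA of 30 mice was grouped by the library labels (14 LD, 16 ADV). The authors trimmed the paired reads of stranded poly(A) libraries, mapped them to GRCm39 with STAR 2.7.10a, and counted exonic reads per transcript with HOMER 4.11; versions are from the submitters' processing notes. The deposited estimated counts are not normalized, and because each mate counts as 0.5 read, 14.8% were not whole; they were rounded. The deposited FPKM values were made by the authors from the same counts, exon lengths and library totals. Whether strand was used in counting is not given in the sources used here. For a symbol with several rows the longest was used. Genes with a mean over 20 reads and over 0.5 FPKM were tested.

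Counts were fitted with edgeR 4.0.16 (R 4.3.3; TMM, quasi-likelihood F test, Benjamini-Hochberg FDR over all genes tested). Levels in FPKM were compared by Wilcoxon's rank-sum test (2-sided, exact, with 100000 permutations in case of ties; scipy 1.17.1). Correlations used log2 TMM-normalized CPM (prior count 0.5), 2-sided permutation p-values (100000 permutations) and the same adjustment; slopes were compared with limma 3.58.1. Alternatives were DESeq2 1.42.0, limma on log2(FPKM + 0.1) and log2(FPKM + 1), other size factors, other filters (none, or a mean over 100 reads), summed rows, a block for the label number, the score of clock genes as a covariate, removal of the GC content trend, a fold over 1.3 and leaving out each mouse; the immediate early score and the 28 libraries with shared label numbers were added after seeing the data. The edgeR, DESeq2 and limma group comparisons, the GC content correction, the rank-sum test and the Pearson correlations were tried on simulated data. The slope comparison, rank and partial correlations, and the fits with a block or a covariate score were not. p-values measure the spread between mice, 1 library each, and a gene near 20 reads carries a large counting error.

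The 10 genes, the pathway and marker lists, the scores and the tests were chosen with earlier results of these data known. Named besides the 10 genes are, per pathway list, up to 3 called genes with the largest change or else the one with the smallest p, the 5 genes most like Atf4 and Ddit3, and genes whose exons overlap theirs (GENCODE vM39 annotation). Of the latter, 1700012J15Rik, Il4i1, Nup62, Tulp2, Gm4189 and Gm34154 overlap at most 20.5% of a gene's annotated exon bases and, apart from Gm4189, are not described. Promoters were read from the GRCm39 genome at the deposited transcript starts. Muscle function and histology were not analysed here.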

Additional observations from a re-analysis of the deposited data

How the results depend on the processing

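The calls of Atf4, Ddit3 and Ppp1r15a held under DESeq2, limma on log2(FPKM + 0.1) or log2(FPKM + 1), other size factors and library size alone. They also held with summed rows, either filter and every edgeR fit without 1 mouse. Asns was also called by DESeq2 but not by limma on log2(FPKM + 0.1) or without the filter. The other settings lowered the counts. With the label number as a replicate block (28 libraries) 494 genes, 1 of the 8 genes (Ppp1r15a, log2 fold change 0.34, edgeR FDR 0.0388) and 3 of the 76 other pathway genes were called; the same 28 libraries without the block gave 616, 2 and 4. Deviations of same-numbered mice correlated at -0.26 to 0.43 over 14 pairs, 6 of 14 were over 0.1, and 3 of 14 correlated best with their own number. Whether same-numbered mice share a factor was not tested. The clock score as a covariate left 0, 0 and 0 calls, removal of the GC content trend 604, 2 and 5, that removal with the replicate block 251, 0 and 2, and the immediate early score 324, 0 and 1. The fold limit of 1.3 left 252 genes. Signs turned for Trib3 (0.080) and Chac1 (0.47) with the clock score, and for Sesn2 without the GC trend (-0.026, and -0.0017 with the block), none of them called. Signs of r also turned for Asns with Atf4 in ADV (rho -0.16, and -0.094 without the 2 farthest mice), Trib3 with Atf4 in ADV (0.14 without them), Trib3 with Ddit3 in ADV (-0.040 without the GC trend), and, without the 2 farthest LD mice, for Ddit3 with Atf4 (0.040), Trib3 (-0.053), Chac1 (0.064) and Ppp1r15a (0.10). Leaving out each mouse gave 835 (without LD mouse 28) to 1542 genes, 3 to 4 of the 8, 5 (without LD mouse 28 or 35, or ADV mouse 25 or 33) to 9 of the other pathway genes, and 1 (without LD mouse 28 or ADV mouse 25) to 4 by the rank-sum test, against 1301, 4, 8 and 3 with all mice; the cause was not tested. Low counts limit Asns and Trib3, and Fgf21 and Gdf15 more so.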
